A study of Mus musculus and Acomys cahirinus with 25 samples.

Results

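The transcripts of 10 genes that mark stem cells of the hair follicle were followed through the RNA-seq counts of laboratory mouse and spiny mouse wounds: the receptors Lgr5 and Lgr6, the surface proteins Cd34 and Lrig1, and the transcription factors Sox9, Lhx2, Nfatc1, Tbx1, Foxc1 and Zbtb16. They were chosen by name, and all 10 were found among the 24500 gene symbols of every library. The series holds 25 poly(A) RNA libraries of dorsal wound epidermis and dermis, made to compare wounds that form hair follicles anew. The laboratory mice were 4-week-old animals of both sexes with full-thickness wounds sampled on post-wound day 14 (PWD14). In these wounds the wound center is the zone of new follicles and the wound margin is the tissue left around it. From them came 2 libraries of wound center epidermis, 2 of wound margin epidermis, 5 of wild-type wound center dermis, 2 of wild-type wound margin dermis and 2 of wound center dermis from K14-Cre-Twist1 mice. In K14-Cre-Twist1 mice a keratin 14 promoter drives Cre in keratinocytes and removes the floxed Twist1 there, so the dermal cells sampled keep the gene and their Twist1 level is no check of the deletion. Their controls carried 2 intact Twist1 alleles. The spiny mice (Acomys cahirinus, 2 months old, wild type, both sexes) gave epidermis of unwounded skin at PWD0 (1 library) and of whole wounds at PWD14 (2), PWD21 (2) and PWD28 (1), and dermis at PWD0 (2), PWD14 (1), PWD21 (2) and PWD28 (1). These days are those of the labels, and the study's own list of samples gives other days for every wounded spiny mouse library, so the days are used here as names of groups. No margin and no gene deletion was sampled in the spiny mouse, and no unwounded skin of the laboratory mouse.

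A hair follicle keeps slow-cycling epithelial stem cells in a niche called the bulge, and a more active pool just below it in the hair germ. Lgr5 and Lgr6 are receptors for R-spondins, secreted proteins that raise Wnt signaling at the cell surface by removing the ubiquitin ligases Znrf3 and Rnf43. Sox9, Lhx2, Tbx1, Nfatc1 and Foxc1 are transcription factors known for specifying or maintaining bulge cells or their quiescence, while Lrig1 restrains epidermal growth factor receptor signaling and marks the upper follicle. None of these genes is restricted to the follicle: Cd34 also marks vascular endothelium and many fibroblasts, Foxc1 and Nfatc1 act in vessels, and Zbtb16 (also called Plzf) acts in several stem and immune cells.

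Depth was 19413261 to 86532134 reads on genes in the laboratory mouse libraries and 5669760 to 34751956 in the spiny mouse libraries. Spiny mouse reads were aligned to the laboratory mouse genome, and 24.4 to 52.9% of them were counted on genes, against 57.7 to 69.8% in the laboratory mouse, so levels were not compared between species. The laboratory mouse libraries held few genes of low count (315 to 1447 genes with 1 to 9 counts, against 2277 to 3953 in the spiny mouse), and a count of 0 there says only that the gene was not detected in that library. The laboratory mouse epidermis was sequenced paired-end and the dermis single-end, so read type and layer cannot be told apart in that species. The labelled layers carried their markers: the summed level of 12 keratinocyte markers was 40710 to 215900 CPM (counts scaled to the total of all gene counts of a library) in epidermis and 13.4 to 8074 CPM in all dermis libraries except K14-Cre-Twist1 replicate 2, where it was 35770 CPM. That library stood apart in other ways too, with 12075 genes detected where the other laboratory mouse libraries had at least 13125.

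The promoters of 6 of the 10 genes were examined, taken from a RefSeq-derived table (GRCm38.p6, 250 bases before to 50 after each start site, 8 start sites in all). They were searched on both strands for AACAAT (a SOX motif), TGTTTAC (forkhead), TAATTA (LIM homeobox), TCACACC (T-box) and CATCTG (an E-box of the kind bound by Twist1), letters that belong to families of these same genes and of Twist1. Of the 8 promoters, 3 held 1 match each. Among all 32851 promoters of the table, AACAAT or its reverse complement was in 10.7%, CATCTG in 17.2%, TAATTA in 5.29%, TCACACC in 3.98% and TGTTTAC in 3.65%, and 34.2% held at least 1 of the 5. The share of 3 in 8 is near that of all promoters. The 3 with a match are shown. Their genes, Lgr6, Lrig1 and Lhx2, differed among the days of spiny mouse epidermis, as described further on. Tbx1 and Foxc1 also differed there, and their promoters held no match. Capitals mark the match, and the sequences are those of the laboratory mouse, 5′ to 3′ on the gene's own strand.
Lgr6, SOX motif, chr1:135105227-135105526, minus strand: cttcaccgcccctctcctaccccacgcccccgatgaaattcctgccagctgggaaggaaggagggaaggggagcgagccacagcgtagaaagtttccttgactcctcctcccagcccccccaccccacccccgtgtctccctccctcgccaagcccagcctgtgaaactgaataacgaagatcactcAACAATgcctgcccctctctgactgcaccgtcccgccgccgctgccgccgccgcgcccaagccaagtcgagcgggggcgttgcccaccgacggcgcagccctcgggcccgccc
Lrig1, SOX motif in reverse, chr6:94700096-94700395, minus strand: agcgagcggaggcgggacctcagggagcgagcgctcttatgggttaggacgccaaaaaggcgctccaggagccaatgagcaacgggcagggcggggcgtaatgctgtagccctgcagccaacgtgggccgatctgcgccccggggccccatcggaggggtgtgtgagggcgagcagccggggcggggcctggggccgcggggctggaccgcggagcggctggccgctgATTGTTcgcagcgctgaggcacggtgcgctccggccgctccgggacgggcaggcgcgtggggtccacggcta
Lhx2, E-box at the second start site, chr2:38351058-38351357, plus strand: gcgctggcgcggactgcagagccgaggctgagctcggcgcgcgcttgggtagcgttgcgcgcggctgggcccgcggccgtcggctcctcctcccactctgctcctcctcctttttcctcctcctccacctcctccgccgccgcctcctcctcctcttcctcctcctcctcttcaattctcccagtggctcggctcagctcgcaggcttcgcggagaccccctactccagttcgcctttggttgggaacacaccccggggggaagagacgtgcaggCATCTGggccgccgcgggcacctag
The first start site of Lhx2, both start sites of Tbx1 and those of Foxc1 and Cd34 held none of the 5 letter strings. A match is a description of these letters and does not show that a factor binds there.

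Levels below are CPM of all gene symbols. Fold changes are from edgeR's quasi-likelihood test with TMM scaling on the counts, FDR is its Benjamini-Hochberg adjusted p over all genes tested, and a gene was called at FDR under 0.05. Labels do not say that the libraries came from separate animals. The study describes its laboratory mouse RNA-seq replicates as biologically independent experiments, without giving the number of animals per library. The tests measure the spread between libraries. In bulk tissue, fewer cells of a type and less RNA of a gene per cell cannot be told apart.

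In the laboratory mouse, few of the genes separated wound center from wound margin. In epidermis 1 of the 8 tested was called (Zbtb16, lower in the center), where 1.24% of all 14165 genes tested were called. In dermis 1 of the 9 tested was called (Lgr5, lower in the center), where 0.85% of 14698 genes were called. The center-margin difference itself differed between epidermis and dermis for 2 of 10 (Cd34 and Foxc1), against 3.48% of 15531 genes. None of the 9 tested was called between K14-Cre-Twist1 and wild-type wound center dermis, where 0.0565% of 14163 genes (8 genes) were called. In that comparison 0 of the 9 and 1631 of all 14163 genes had an unadjusted p under 0.05 with edgeR. With DESeq2 it was 1 of the 9 and 2604 of 14158 genes, and DESeq2 also called 0 of the 9.

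Between layers more genes differed, as they did among all genes. In the laboratory mouse wound center 6 of 8 tested were called between epidermis and dermis, against 56.1% of all genes, with Lgr6, Sox9 and Foxc1 higher in epidermis (29.3% of all genes) and Lgr5, Cd34 and Lrig1 lower (26.8%). In the wound margin 4 of 10 were called, against 47.7%, with Lgr6 higher in epidermis (20.9%) and Lgr5, Cd34 and Foxc1 lower (26.8%). In the spiny mouse at PWD21, 5 of 10 were called, against 62.9%, with Sox9 higher in epidermis (29.4%) and Lgr5, Cd34, Nfatc1 and Lrig1 lower (33.5%). These shares are near those of all genes, so the counts show no more layer difference than genes in general had. Without TMM scaling the share of calls that were higher in epidermis fell from 52.3 to 28.4% in the wound center and from 43.8 to 20.5% in the margin, and the median log2 change of all genes moved from 0.05 to -0.73 and from -0.16 to -0.98. Under that scaling Sox9 was no longer called in the center and Lgr6 no longer in the margin, while 3 calls were gained, all lower in epidermis: Nfatc1 in the center and Lrig1 and Tbx1 in the margin. Cd34, Lgr5 and Lrig1 were then called lower in epidermis in both regions, and at spiny mouse PWD21 Tbx1 was called lower as well.

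**Figure D1:**
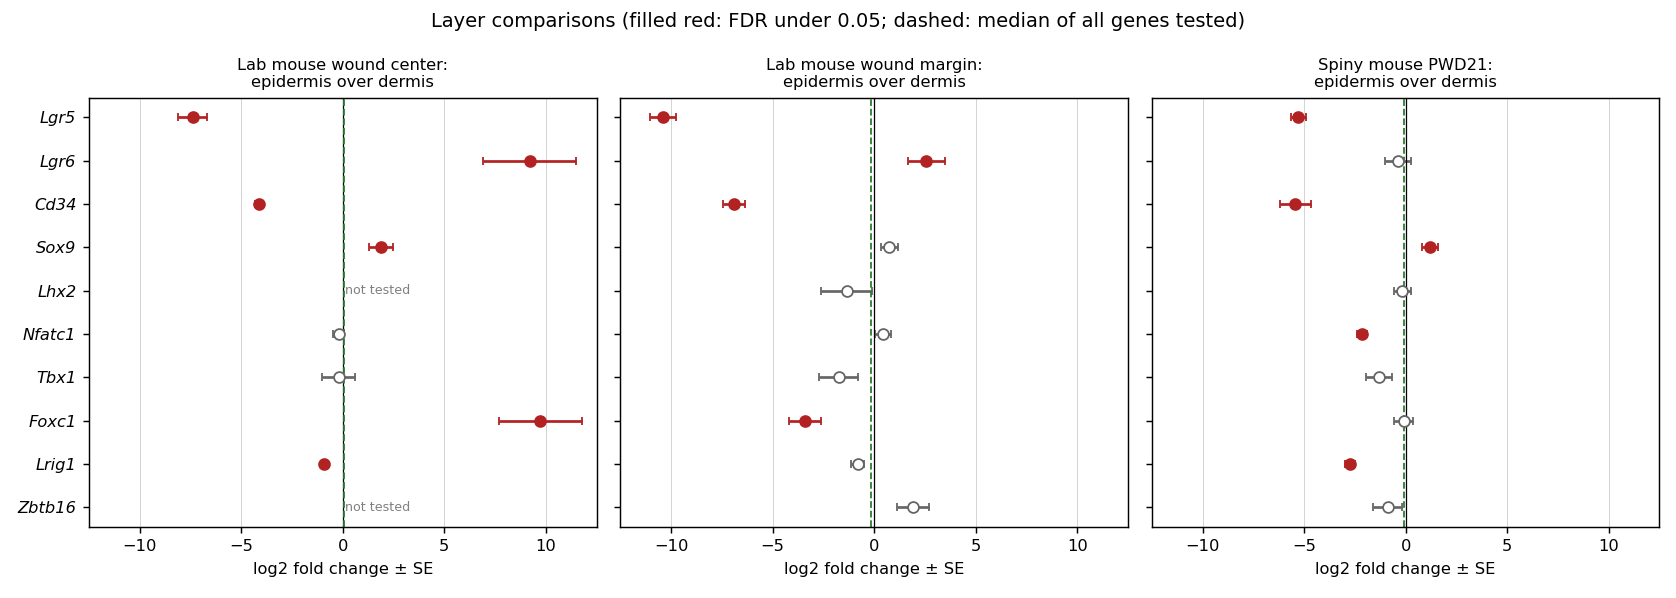
Fitted log2 fold change of each gene between epidermis and dermis (points, bars are 1 SE, x axis in log2 units) in 3 comparisons of 2 against 2 libraries, with filled red points for FDR under 0.05 and a dashed line at the median of all genes tested. Cd34 and Lgr5 lie far to the dermal side in all 3 comparisons, and the positive values of Lgr6 and Foxc1 in the wound center were fitted against dermis libraries at 0 counts and are not bounds.

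In spiny mouse epidermis most of the genes stood higher in the unwounded skin and the PWD28 wound than in the wounds between, though they did not all move alike. A test for any difference among the 4 days called 9 of 10 in epidermis (all but Cd34), against 59.5% of all 14336 genes, and 8 of 10 in dermis (all but Lgr6 and Nfatc1), against 24.7% of 15344 genes. In epidermis the PWD0 and the PWD28 library both lay above all 4 libraries of PWD14 and PWD21 for those same 9 genes, a pattern that 37.7% of the 12511 genes averaging 1 CPM or more there showed. On TMM-scaled CPM, a scaling tried after the data were seen, the 9 genes also had that pattern, and 21.9% of genes did. Cd34 did not share it, and between PWD14 and PWD21 Sox9 went the other way from Lhx2 and Lrig1.

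Other features also set the PWD0 and PWD28 epidermis libraries apart from those between, the inner root sheath sum being high at PWD28 only. The 12 keratinocyte markers went the opposite way from most of the genes. They summed to 50480 CPM at PWD0 and 40710 CPM at PWD28, against 80820 to 89300 CPM in the 4 libraries between. Adipocyte markers also went the opposite way, at 38.0 and 93.4 CPM against 1053 to 6303 CPM. Fibroblast markers did so by little, at 305 and 275 CPM against 314 to 554 CPM. Inner root sheath genes, which mark growing follicles, summed to 27540 CPM at PWD28 against 1903 CPM at PWD0 and 2335 to 3946 CPM at PWD14 and PWD21. The PWD0 and PWD28 libraries were also the shallowest of the epidermis (10590646 and 9742823 reads on genes, against 12902800 to 33831242) and held the most genes with 1 to 9 counts (3915 and 3953, against 2837 to 3454). The part of these features in the result was not tested.

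In dermis all 3 libraries of PWD14 and PWD21 lay below both PWD0 libraries for 6 of 10 (Cd34, Sox9, Lhx2, Tbx1, Foxc1 and Zbtb16), against 22.4% of 13856 genes. PWD0 and PWD28 of epidermis and PWD14 and PWD28 of dermis had 1 library each, and the tests assume that these vary like the days with 2.

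**Figure D2:**
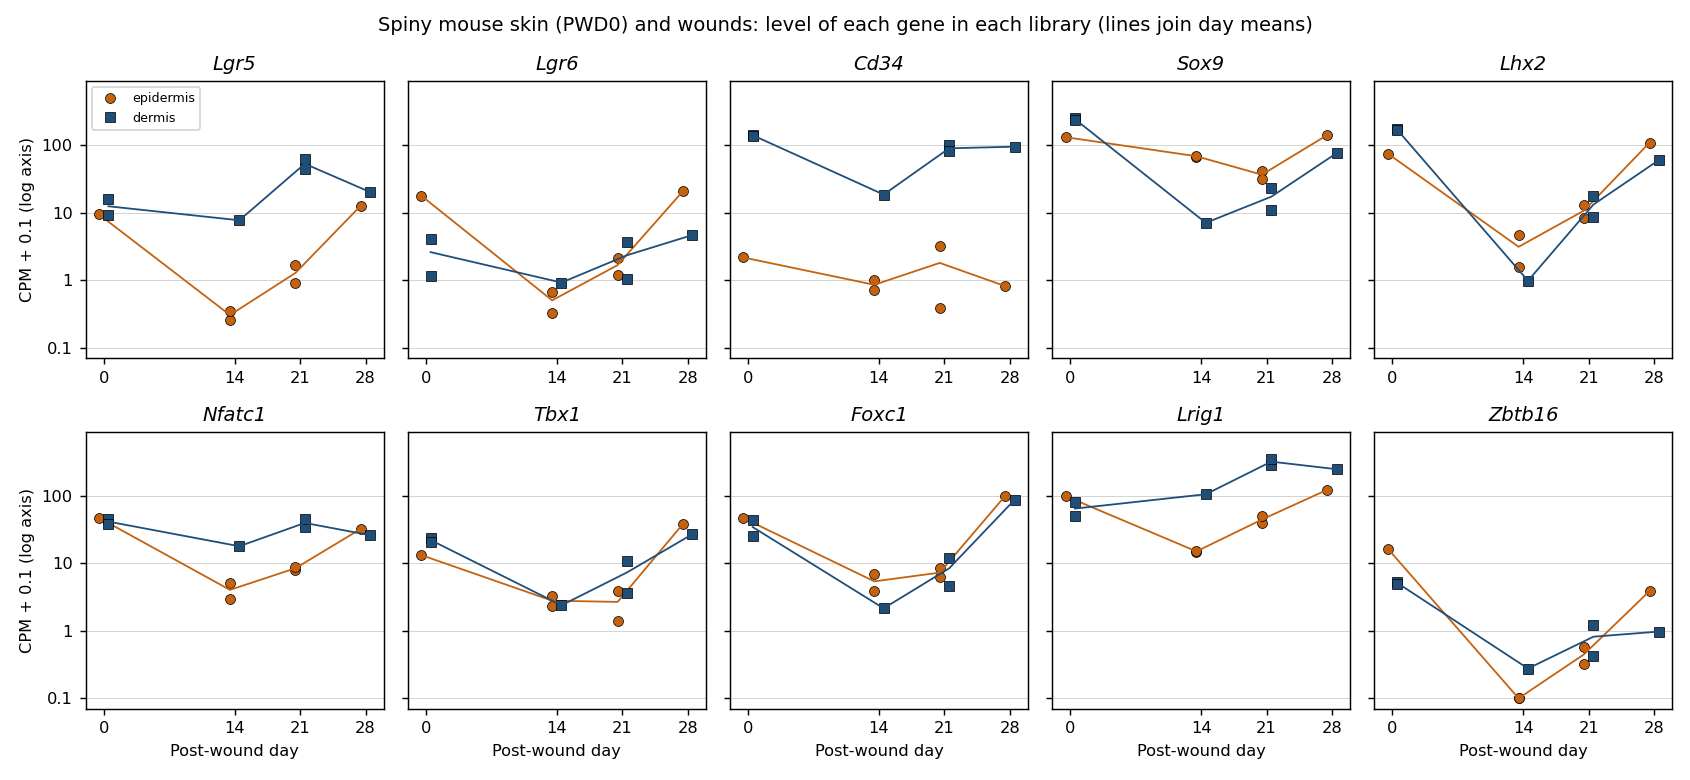
CPM + 0.1 on a log axis against post-wound day for each gene, with 1 point per library (orange circles, epidermis; blue squares, dermis) and lines joining the means of the days. The 2 epidermal curves of Lgr5 and Lgr6, for example, fall from 9.35 and 17.9 CPM at PWD0 to 0.205 and 0.403 CPM at PWD14 and stand at 12.7 and 20.9 CPM at PWD28, while Cd34 stays at 3.13 CPM or less in every epidermal library.

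Directly tested pairs of days were fewer. Between PWD14 and PWD21 of spiny mouse epidermis 3 of 9 tested were called, against 46.6% of all genes: Sox9 was higher at PWD14 (23.4% of genes) and Lhx2 and Lrig1 were lower (23.2%). That comparison depended on the scaling, since the TMM factors ran from 0.804 to 1.23. Without them the calls among all genes went from 50.2 to 18.9% higher at PWD14, the median log2 change went from -0.04 to -0.59, and 6 of the genes were called, Lgr5, Lgr6 and Nfatc1 being lower at PWD14 as well. Reads counted on genes were 24.4 and 26.8% at PWD14 and 34.1 and 38.3% at PWD21, and the part of this difference in the result was not tested. Between PWD21 and PWD0 of dermis 7 of 10 were called, against 26.2%, with Lgr5 and Lrig1 higher at PWD21 (12% of genes) and Sox9, Lhx2, Tbx1, Foxc1 and Zbtb16 lower (14.2%). The call of Tbx1 was lost without TMM factors. Without PWD21 dermis replicate 1 only Sox9, Lhx2 and Lrig1 were still called there.

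**Figure D3:**
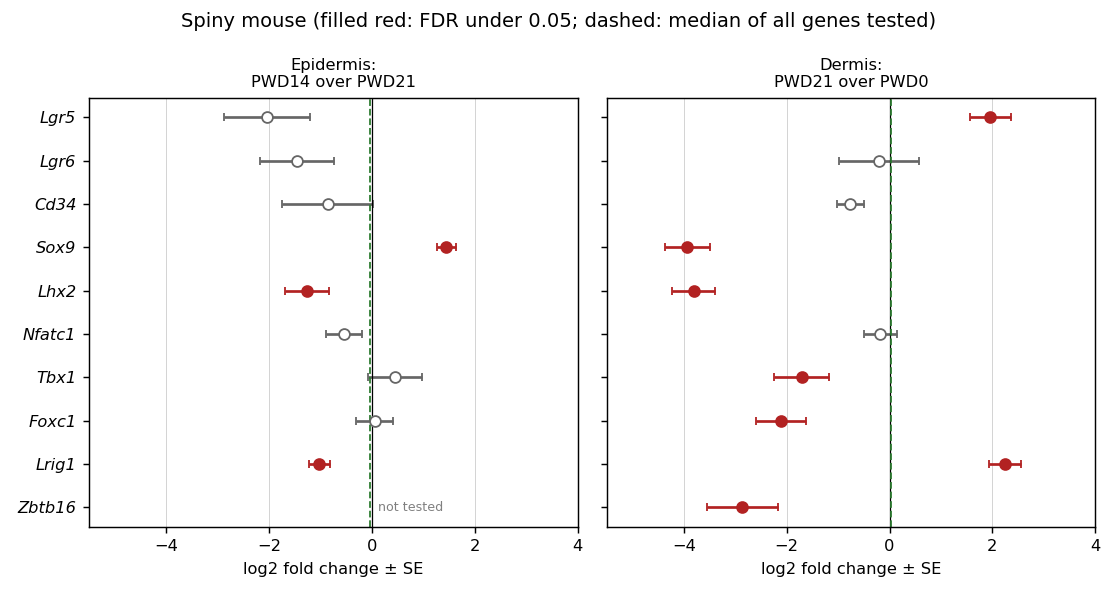
Fitted log2 fold change of each gene (points, bars are 1 SE, x axis in log2 units) between PWD14 and PWD21 of spiny mouse epidermis and between PWD21 and PWD0 of spiny mouse dermis, 2 against 2 libraries each, with filled red points for FDR under 0.05 and a dashed line at the median of all genes tested. Sox9 is the gene called higher at PWD14 in epidermis, and in dermis Lgr5 and Lrig1 lie to the right of 0 while Sox9 and Lhx2 lie below -3.

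Lgr5 (chr10:115450314-115587780, minus strand), the R-spondin receptor that marks the lower bulge and hair germ, was called higher in dermis than in epidermis in both regions of the laboratory mouse wound and in the spiny mouse wound at PWD21. In the laboratory mouse it was at 0.0736 and 0.289 CPM in wound center epidermis and at 0 and 0.0925 CPM in margin epidermis, too low to be tested between the regions. In dermis it was at 152 and 167 CPM in the margin and at 66.7 and 34.3 CPM in the center libraries compared with it. The groups did not overlap, and center was lower than margin by a log2 change of -1.55 ± 0.30 (SE, FDR 0.0427). The other 3 wild-type center libraries held 6.12, 4.18 and 64.1 CPM, so the center ranged from 4.18 to 66.7 CPM and every value lay below both margin libraries. With all 5 center libraries the change was -2.0 and was not called (FDR 0.135). That fit adds the 3 libraries compared with K14-Cre-Twist1, and the part of a difference between the 2 sets was not tested. Leaving out margin replicate 1, margin replicate 2 or center replicate 2 also ended the call, at FDR 0.26, 0.463 and 0.0627.

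Against dermis, Lgr5 was lower in epidermis by a log2 change of -7.40 ± 0.72 in the wound center (FDR 0.00089) and of -10.41 ± 0.63 in the margin (FDR 6.03e-06). The 12 keratinocyte markers summed to 156500 to 215900 CPM in these epidermis libraries, where Lgr5 was at 0.289 CPM or less, and to 439 to 633 CPM in center and 2334 to 4674 CPM in margin dermis. The 2 K14-Cre-Twist1 dermis libraries held 43.3 and 17.0 CPM, within the range of the wild-type center, and the change of 0.25 ± 1.02 against the 3 wild-type libraries of that comparison was not called (FDR 0.93).

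In the spiny mouse, epidermal Lgr5 was at 9.35 CPM at PWD0, 0.155 and 0.255 CPM at PWD14, 1.57 and 0.799 CPM at PWD21 and 12.7 CPM at PWD28. PWD14 and PWD21 did not overlap, yet the log2 change of -2.04 ± 0.84 missed the threshold (FDR 0.0648), with 2 and 4 counts behind the PWD14 values. Dermal Lgr5 ran another course: it was at 15.7 and 9.11 CPM at PWD0, 7.65 CPM at PWD14, 61.9 and 44.6 CPM at PWD21 and 20.2 CPM at PWD28. PWD21 stood above every other day and above PWD0 by a log2 change of 1.96 ± 0.40 (FDR 0.00996), and without PWD21 replicate 1 the change was 1.76 (FDR 0.0639). At PWD21 epidermis was lower than dermis by -5.28 ± 0.38 (FDR 2.52e-05). At PWD0 the epidermal library lay within the range of the dermis, and at PWD28 epidermis held 12.7 CPM beside 20.2 CPM in dermis, days at which the layers were not tested.

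Lgr6 (chr1:134983300-135105374, minus strand), the related receptor of the upper follicle, sebaceous gland and interfollicular epidermis, was low in every laboratory mouse library. It was at 1.87 and 1.12 CPM in center epidermis and 1.87 and 2.36 CPM in margin epidermis, and the log2 change of -0.60 ± 0.51 was not called (FDR 0.506). Dermal levels were 0 counts in 3 of the 5 wild-type center libraries and at 0.629 and 0.605 CPM in the others, and at 0.431 and 0.856 CPM in the margin. Center epidermis was at least 10.3-fold higher than the 2 center dermis libraries at 0, taking 3 counts per library as the limit of a count of 0 (FDR 0.0304, lost without either epidermis library, at 0.333 and 0.202). In the margin the layer change of 2.57 ± 0.93 was called (FDR 0.0418) and was lost without any 1 of the 4 libraries, at FDR 0.0529 to 0.331.

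In spiny mouse epidermis Lgr6 was at 17.9 CPM at PWD0, 0.232 and 0.574 CPM at PWD14, 2.07 and 1.08 CPM at PWD21 and 20.9 CPM at PWD28. The lone PWD28 library held 13.3 times the PWD21 mean, and PWD0 held 44.2 times the PWD14 mean. In dermis Lgr6 was at 1.06 and 3.97 CPM at PWD0, 0.824 CPM at PWD14, 0.958 and 3.54 CPM at PWD21 and 4.58 CPM at PWD28, and these days were not told apart (FDR 0.527).

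Of the 7 genes of the R-spondin and LGR axis, none was called between center and margin in either layer of the laboratory mouse. An unadjusted p under 0.05 with edgeR was found for 1 of them in each layer. Among all genes it was found for 3328 of 14165 in epidermis and 2329 of 14698 in dermis. At PWD21 of the spiny mouse the ligands were higher in dermis: Rspo3 was at 0.0296 CPM in epidermis and 45.3 CPM in dermis (log2 change -9.90 ± 0.55, FDR 5e-06), and Rspo1 at 0.407 and 89.0 CPM (-7.62 ± 0.30, FDR 5e-06). The epidermal Rspo3 mean lay below the level of 3 counts in either library (0.0887 and 0.171 CPM), so the size of its change is uncertain. From PWD0 to PWD21 of dermis Rspo1 rose from 20.3 to 89.0 CPM (2.03 ± 0.29, FDR 0.00213) and Rspo3 from 10.9 to 45.3 CPM (1.98 ± 0.37, FDR 0.00685), changes close in size to that of Lgr5 in the same libraries, while the third receptor Lgr4 fell from 147 to 44.5 CPM (-1.85 ± 0.31, FDR 0.0046). In spiny mouse epidermis Lgr4 was lower at PWD14 than at PWD21 (12.4 and 33.3 CPM, -0.87 ± 0.22, FDR 0.00776). In the laboratory mouse wound margin the ligases were higher in epidermis than in dermis: Rnf43 was at 7.85 CPM in margin epidermis and 2.20 CPM in margin dermis (2.67 ± 0.71, FDR 0.0109), and Znrf3 at 28.6 and 5.90 CPM (3.13 ± 0.48, FDR 0.000439).

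Cd34 (chr1:194938821-194961292, plus strand), a sialomucin used to sort bulge cells in mouse skin, was the highest of the 10 genes per kb of exon in every group of laboratory mouse dermis and low in epidermis. In laboratory mouse epidermis it was at 9.32 and 8.09 CPM in the center and 2.44 and 0.844 CPM in the margin. The groups did not overlap, and the log2 change of 2.53 ± 0.57 missed the threshold (FDR 0.0979). DESeq2 and a fit of all 13 laboratory mouse libraries called it, at FDR 0.0151 and 0.00513. Those settings also called more of all genes, 1511 of 13615 and 478 of 15885, against 176 of 14165 with the main test. Markers of other cells moved with it: 12 fibroblast markers summed to 5790 and 4780 CPM in center epidermis and to 2091 and 707 CPM in margin epidermis, and 10 endothelial markers to 41.5 and 28.7 CPM and to 9.13 and 1.93 CPM, and their part in the result was not tested.

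In laboratory mouse dermis Cd34 was at 232 and 290 CPM in the center libraries compared with the margin, at 281 and 367 CPM in the margin and at 320, 327 and 332 CPM in the other 3 center libraries. Center and margin overlapped (log2 change -0.22 ± 0.20, FDR 0.663). The epidermal center-margin difference exceeded the dermal one by 2.86 ± 0.52 on the log2 scale (FDR 0.0127), and the call was lost without center epidermis replicate 1 (FDR 0.0599), center dermis replicate 1 or 2 (0.0831 and 0.0553) or margin dermis replicate 1 or 2 (0.0625 and 0.11). K14-Cre-Twist1 dermis held 502 and 372 CPM, both above the 3 wild-type libraries of that comparison, with a log2 change of 0.42 ± 0.23 that was not called (FDR 0.495). Epidermis was lower than dermis by -4.12 ± 0.19 in the center (FDR 0.000172) and by -6.92 ± 0.54 in the margin (FDR 9.64e-06).

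Spiny mouse epidermis held Cd34 at 2.08 CPM at PWD0, 0.62 and 0.893 CPM at PWD14, 3.13 and 0.285 CPM at PWD21 and 0.718 CPM at PWD28, values of at most 106 counts that the days did not separate (FDR 0.549). In dermis it was at 144 and 139 CPM at PWD0, 18.5 CPM at PWD14, 99.6 and 81.2 CPM at PWD21 and 95.6 CPM at PWD28. The low point was the lone PWD14 library, 7.62-fold below the PWD0 mean, and without it the difference among days was no longer called (FDR 0.122, against 0.00854 with it). PWD21 lay below PWD0 in both libraries without passing the threshold (-0.76 ± 0.27, FDR 0.0718).

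Lrig1 (chr6:94604529-94700298, minus strand), a membrane protein that restrains growth factor receptors and marks cells of the upper follicle, was present in all libraries. In the laboratory mouse it was at 38.5 and 34.9 CPM in center epidermis, 27.9 and 36.0 CPM in margin epidermis, 110 and 130 CPM in the center dermis libraries compared with the margin, and 94.2 and 105 CPM in margin dermis. Neither center-margin change was called (0.10 ± 0.23, FDR 0.817, in epidermis and 0.36 ± 0.21, FDR 0.457, in dermis). The other 3 center dermis libraries held 68.1, 49.99 and 87.1 CPM and the K14-Cre-Twist1 libraries 86.3 and 86.7 CPM (0.33 ± 0.30, FDR 0.662).

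Epidermal Lrig1 was lower than dermal Lrig1 by -0.93 ± 0.16 in the wound center (FDR 0.00606), and this call was lost with all 5 center dermis libraries (-0.55, FDR 0.188) and without either center epidermis library (FDR 0.0518 and 0.0817). In the margin the change of -0.81 ± 0.31 just missed the threshold (FDR 0.0546) and was called with RLE scaling (-0.89, FDR 0.0409) or without TMM factors (-1.64, FDR 0.00261). At spiny mouse PWD21 epidermis was lower by -2.74 ± 0.23 (FDR 4.67e-05).

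Over the spiny mouse days Lrig1 was at 99.8 CPM in epidermis at PWD0, 14.9 and 15.1 CPM at PWD14, 39.3 and 50.2 CPM at PWD21 and 124 CPM at PWD28. PWD14 was below PWD21 by -1.02 ± 0.21 on the log2 scale (FDR 0.00252). The dermis held 49.7 and 80.2 CPM at PWD0, 106 CPM at PWD14, 288 and 359 CPM at PWD21 and 250 CPM at PWD28. All 4 wound libraries lay above both libraries of unwounded dermis, and PWD21 exceeded PWD0 by 2.24 ± 0.31 (FDR 0.00192). Markers of the dermis itself moved the same way: of 12 fibroblast markers 7 rose from PWD0 to PWD21 and none fell, where 12% of all genes rose and 14.2% fell, with Pdgfra going from 65.9 to 356 CPM (2.34 ± 0.29, FDR 0.0013), and the part of these markers in the result was not tested.

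Among the Lrig relatives, Lrig3 followed Lrig1. It was lower at PWD14 than at PWD21 in spiny mouse epidermis (6.62 and 34.5 CPM, -1.84 ± 0.27, FDR 0.000387) and higher at PWD21 than at PWD0 in dermis (125 and 22.5 CPM, 2.37 ± 0.28, FDR 0.000921). Lrig2 was also lower at PWD14 in epidermis (4.93 and 13.5 CPM, -0.88 ± 0.31, FDR 0.0366).

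Sox9 (chr11:112782210-112787757, plus strand), the transcription factor that specifies follicle stem cells, was not called between center and margin in either layer of the laboratory mouse. Epidermis held 25.8 and 35.7 CPM in the center and 21.4 and 39.1 CPM in the margin (log2 change -0.08 ± 0.34, FDR 0.904). Dermis held 6.44 and 22.6 CPM in the center and 39.3 and 24.5 CPM in the margin, groups that did not overlap but whose change of -1.09 ± 0.53 was not called (FDR 0.355). The other 3 center libraries held 13.7, 19.9 and 19.7 CPM and the K14-Cre-Twist1 libraries 9.13 and 21.3 CPM (-0.22 ± 0.54, FDR 0.876). Epidermis was higher than dermis in the center (1.89 ± 0.58, FDR 0.0409), a call that was lost without epidermis replicate 2 (1.67, FDR 0.119), and no call was made in the margin (0.74 ± 0.42, FDR 0.178).

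In spiny mouse epidermis Sox9 was at 132 CPM at PWD0, 68.1 and 69.8 CPM at PWD14, 41.7 and 31.6 CPM at PWD21 and 143 CPM at PWD28. It was lowest at PWD21 and stood at PWD14 above PWD21 by 1.45 ± 0.19 (FDR 0.000216), whereas Lhx2 and Lrig1 were lower at PWD14 than at PWD21. Dermal levels were 255 and 235 CPM at PWD0, 7.01 CPM at PWD14, 10.9 and 23.5 CPM at PWD21 and 76.9 CPM at PWD28. The fall from PWD0 to PWD21 was -3.93 ± 0.43 on the log2 scale (FDR 0.000747), and PWD28 lay between those days.

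Lhx2 (chr2:38339271-38369737, plus strand), a LIM homeobox factor of the bulge and of the early follicle bud, was at 0 counts in 8 of the 13 laboratory mouse libraries. In laboratory mouse epidermis it was at 0 and 0.0905 CPM in the center and 0 and 0.601 CPM in the margin. Of the 5 wild-type center dermis libraries 4 were at 0 counts and replicate 1 held 1.59 CPM, margin dermis held 0.172 and 3.47 CPM, and both K14-Cre-Twist1 libraries were at 0. Center against margin in dermis, layer against layer in the margin and the difference between layers of the center-margin contrast called no difference (FDR 0.821, 0.404 and 0.812), and margin dermis itself spanned 4 to 77 counts.

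Lhx2 in spiny mouse epidermis was at 75.6 CPM at PWD0, 1.47 and 4.59 CPM at PWD14, 13.01 and 8.39 CPM at PWD21 and 110 CPM at PWD28. PWD14 was lower than PWD21 by -1.26 ± 0.43 (FDR 0.0322), which was lost without PWD21 replicate 1 (-0.87, FDR 0.203) or PWD14 replicate 1 (-0.74, FDR 0.0976). PWD28 held 10.2 times the PWD21 mean. In dermis it was at 174 and 169 CPM at PWD0, 0.883 CPM at PWD14, 8.67 and 17.7 CPM at PWD21 and 60.6 CPM at PWD28. The PWD0 mean was 194 times the PWD14 value and the fall from PWD0 to PWD21 was -3.81 ± 0.41 (FDR 0.000692), while at PWD21 the layers were not called apart (-0.17 ± 0.41, FDR 0.731).

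The dermal fall of Sox9 and Lhx2 went with a fall of epithelial transcripts in the same libraries. The 12 keratinocyte markers summed to 8074 and 6851 CPM in PWD0 dermis, 1772 CPM at PWD14, 752 and 1330 CPM at PWD21 and 4702 CPM at PWD28, and 11 of the 12 fell from PWD0 to PWD21 (Perp, a desmosomal protein, from 1186 to 76.1 CPM, log2 change -4.08 ± 0.39, FDR 0.000409). Of 20 other bulge genes 7 fell and 2 rose, against 14.2 and 12% of all genes, with Krt15, the keratin of bulge cells, going from 3005 to 41.6 CPM (-6.33 ± 0.70, FDR 0.000758) and Fgf18, a quiescence signal of the bulge, from 268 to 8.53 CPM (-5.10 ± 0.38, FDR 0.000223). Adipocyte markers (5 of 5) and skeletal muscle markers (6 of 7 tested) fell as well. The part of these tissues in the values of the genes was not tested.

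Nfatc1, a calcineurin-dependent factor that keeps bulge cells quiescent and also acts in endothelium and bone, was called in no laboratory mouse comparison with TMM scaling and all libraries. It was at 26.2 and 32.8 CPM in center epidermis and 21.2 and 41.4 CPM in margin epidermis (-0.19 ± 0.34, FDR 0.765). Dermis held 47.0 and 71.0 CPM in the center, 40.3 and 40.65 CPM in the margin (0.62 ± 0.28, FDR 0.319), 60.3, 60.4 and 59.8 CPM in the other 3 center libraries and 60.4 and 51.5 CPM in K14-Cre-Twist1 (-0.11 ± 0.26, FDR 0.881). Layers were not called apart in the center (-0.21 ± 0.25, FDR 0.513) or the margin (0.45 ± 0.39, FDR 0.364). The center call depended on the scaling: the CPM of the layers did not overlap there, and without TMM factors epidermis was called lower (-1.0, FDR 0.0237). Without center dermis replicate 1 the center change was -0.43. In the margin the change was -0.36 without TMM factors (FDR 0.471). Without margin epidermis replicate 1 it was 0.8, and the change of Nfatc1 from margin to center epidermis was then -0.52.

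Spiny mouse epidermis held Nfatc1 at 47.3 CPM at PWD0, 5.04 and 2.87 CPM at PWD14, 7.95 and 8.85 CPM at PWD21 and 32.5 CPM at PWD28. The dermis held 45.5 and 37.8 CPM at PWD0, 17.9 CPM at PWD14, 34.6 and 45.0 CPM at PWD21 and 26.1 CPM at PWD28, days that were not told apart (FDR 0.156). At PWD21 epidermis was lower than dermis (-2.13 ± 0.25, FDR 0.000238). Its relative Nfatc4 was a dermal gene in both species and rose in spiny mouse dermis from 20.1 CPM at PWD0 to 176 CPM at PWD21 (3.04 ± 0.30, FDR 0.000484).

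Tbx1 (chr16:18580979-18590671, minus strand), a T-box factor needed for renewal of bulge cells, was low in the laboratory mouse. It was at 0.987 and 1.05 CPM in center epidermis and 0.765 and 0.254 CPM in margin epidermis (1.20 ± 0.79, FDR 0.391). Dermis held 0.952 and 3.19 CPM in the center and 2.20 and 2.88 CPM in the margin (-0.25 ± 0.98, FDR 0.946), and 0 to 2.69 CPM in the other center and K14-Cre-Twist1 libraries. No laboratory mouse comparison called it with TMM scaling. In the margin the layers did not overlap, and the change of -1.74 ± 0.96 (FDR 0.163) became -2.57 without TMM factors and was called (FDR 0.0473).

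Spiny mouse epidermis held Tbx1 at 13.2 CPM at PWD0, 3.18 and 2.23 CPM at PWD14, 3.87 and 1.31 CPM at PWD21 and 38.6 CPM at PWD28. PWD28 was 2.92 times PWD0 and 14.9 times the PWD21 mean, and PWD14 and PWD21 overlapped. Dermal levels were 23.5 and 20.9 CPM at PWD0, 2.30 CPM at PWD14, 3.56 and 11.0 CPM at PWD21 and 27.1 CPM at PWD28. The fall from PWD0 to PWD21 (-1.71 ± 0.53, FDR 0.0465) was lost without PWD21 replicate 1 (-1.08, FDR 0.185), without TMM factors (-1.6, FDR 0.0504) or without a low-count filter (-1.61, FDR 0.0535), and the difference among days was lost without the PWD14 library (FDR 0.102).

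Foxc1 (chr13:31806646-31810635, plus strand), a forkhead factor that holds bulge cells in quiescence, had its highest laboratory mouse levels in margin dermis. That dermis held 8.14 and 9.96 CPM, the 2 center libraries compared with it were at 0 counts, and the other 3 center libraries held 0.909, 1.01 and 0 CPM. Both margin libraries thus lay above all 5 of the center. Against the pair at 0 the margin was at least 62.3-fold higher, taking 3 counts per library as the limit. The quasi-likelihood test of edgeR did not call it (FDR 0.113), whereas DESeq2 (FDR 3.75e-06) and the fit with all 5 center libraries (log2 change -4.32, FDR 0.0126) did. Epithelial transcripts differed the same way. Inner root sheath genes summed to 0 to 13.7 CPM in the 5 center libraries and to 875 CPM in each margin library. The 12 keratinocyte markers summed to 13.4 to 633 CPM in the center and 2334 to 4674 CPM in the margin. The part of these tissues in the Foxc1 values was not tested.

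Epidermal Foxc1 ran the other way, with 1.66 and 2.68 CPM in the center and 0.255 and 0.601 CPM in the margin. These groups did not overlap, and the change was not called (2.05 ± 0.67, FDR 0.157). The difference between the layers in this contrast was called (FDR 0.0103) and was lost without center epidermis replicate 2 or margin dermis replicate 2 (FDR 0.0643 and 0.0646). In the margin, epidermis was lower than dermis (-3.41 ± 0.79, FDR 0.00526). In the center it was at least 14.9-fold higher than the 2 dermis libraries at 0 (FDR 0.0188), a call lost without either epidermis library (FDR 0.134 and 0.229). K14-Cre-Twist1 dermis held 0 and 5.81 CPM, the second in the library with 35770 CPM of keratinocyte markers, where Lgr6 was also at 5.81 CPM, and the part of those cells in the value was not tested.

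The 4 wound libraries of spiny mouse epidermis at PWD14 and PWD21 held Foxc1 at 6.82, 3.83, 8.34 and 6.11 CPM, against 46.9 CPM at PWD0 and 101 CPM at PWD28. PWD28 was 2.14 times PWD0 and 13.9 times the PWD21 mean. Dermis held 25.4 and 43.7 CPM at PWD0, 2.06 CPM at PWD14, 4.61 and 12.1 CPM at PWD21 and 87.8 CPM at PWD28. PWD21 was below PWD0 by -2.11 ± 0.49 (FDR 0.0164; FDR 0.0808 without PWD21 replicate 1), and PWD28 lay above every other dermal library. Foxc2, its close relative, fell in dermis from 15.6 to 0.993 CPM between PWD0 and PWD21 (-4.08 ± 0.68, FDR 0.00417).

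Zbtb16 (chr9:48651797-48836225, minus strand), a zinc-finger repressor of progenitor cells, was the one gene of the 10 called between regions in laboratory mouse epidermis. It was at 0.118 and 0.108 CPM in the center (8 and 6 counts) and 3.69 and 2.88 CPM in the margin (130 and 249 counts). The groups were far apart (-4.89 ± 0.70, FDR 0.0368), and center was lower in every alternative that tested it. The call was lost without center replicate 1 (FDR 0.373) or 2 (FDR 0.327). The dermis held 0 counts in both center libraries compared with the margin and at 1.46 and 1.58 CPM in the margin, a difference of at least 10.5-fold that was not called (FDR 0.238). The other 3 center libraries held 0, 2.47 and 1.94 CPM and so overlapped the margin, and K14-Cre-Twist1 held 6.92 and 0 CPM.

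Zbtb16 in spiny mouse epidermis was at 16.5 CPM at PWD0, 0 counts in both PWD14 libraries, 0.473 and 0.228 CPM at PWD21 and 3.80 CPM at PWD28. PWD0 was thus at least 78.0-fold above PWD14, and PWD28 was 0.23 times PWD0, the lowest such ratio of the 9 genes that changed over the epidermal days. In dermis it was at 5.29 and 4.85 CPM at PWD0, 0.177 CPM at PWD14, 0.319 and 1.12 CPM at PWD21 and 0.878 CPM at PWD28. The fall from PWD0 to PWD21 (-2.86 ± 0.69, FDR 0.019) was lost without PWD21 replicate 1 or 2 (FDR 0.151 and 0.0518), and PWD28 lay within the PWD21 range.

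**Figure D4:**
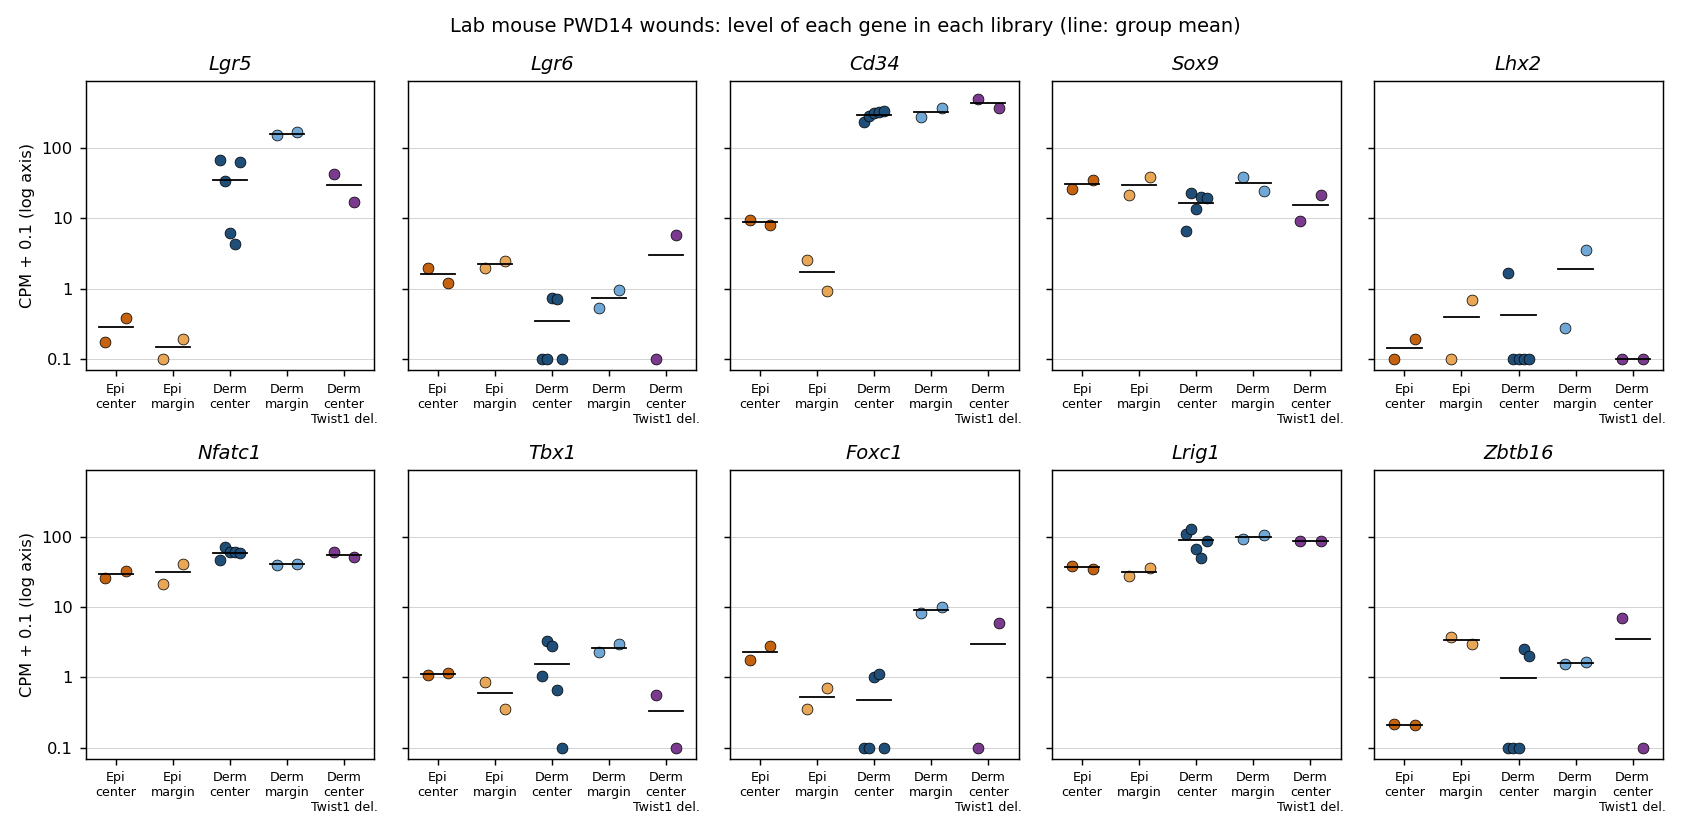
CPM + 0.1 on a log axis for each gene in the 13 laboratory mouse libraries at PWD14, grouped as epidermis (Epi) and dermis (Derm) of the wound center and margin and K14-Cre-Twist1 center dermis (Twist1 del.), with 1 point per library and a line at the group mean. Lgr5 is near the bottom in epidermis and at 152 and 167 CPM in margin dermis, Cd34 is above 200 CPM in all dermis libraries, and most Lhx2 points sit at 0 counts, which the axis shows as 0.1.

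**Figure D5:**
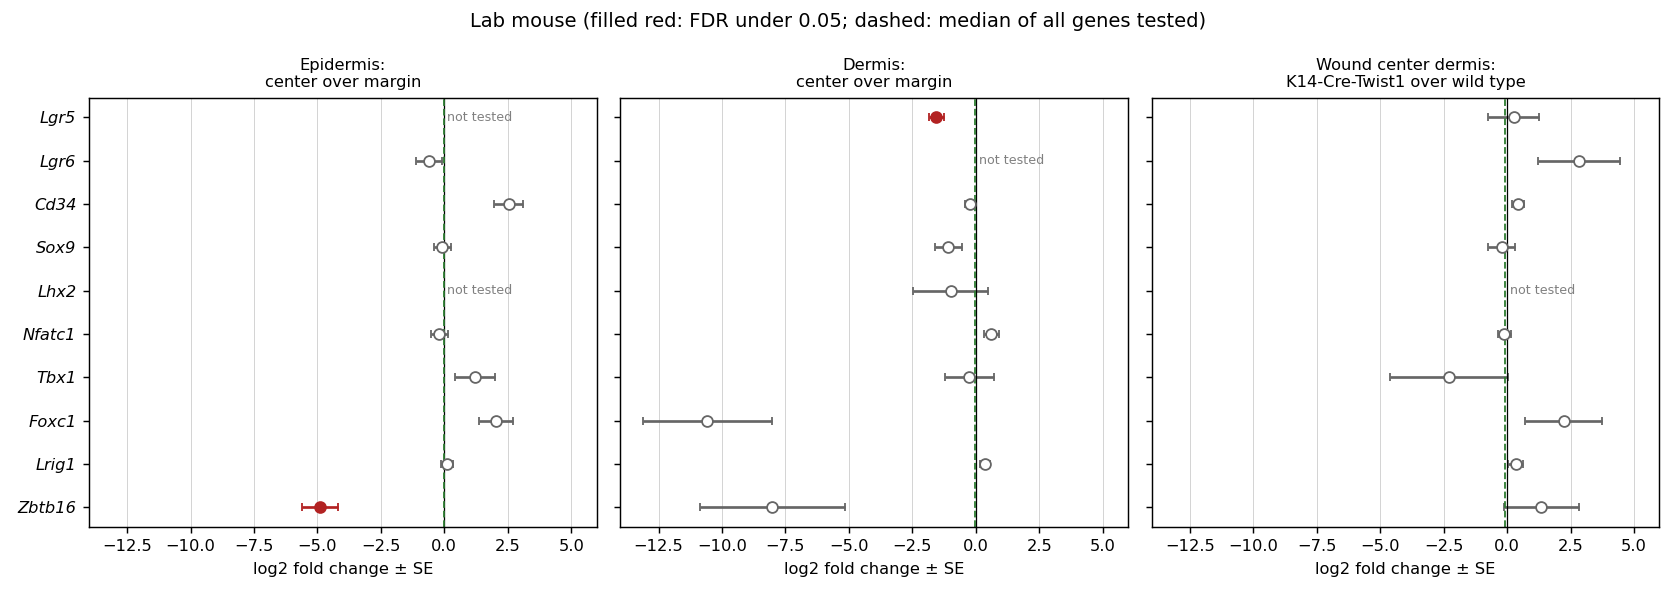
Fitted log2 fold change of each gene (points, bars are 1 SE, x axis in log2 units) for center over margin in epidermis and in dermis (2 against 2 libraries each) and for K14-Cre-Twist1 over wild type in center dermis (2 against 3), with filled red points for FDR under 0.05 and a dashed line at the median of all genes tested. Zbtb16 in epidermis and Lgr5 in dermis are the called genes, and the long bars of Foxc1 and Zbtb16 in dermis were fitted against libraries at 0 counts.

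Compared per kb of exon, the order of the genes differed between the layers. Exon lengths were those of the laboratory mouse, and spiny mouse reads were aligned to its genome. The share of spiny mouse reads lost may differ from gene to gene. The orders in that species are thus a description and are not set against those of the laboratory mouse. In spiny mouse epidermis Sox9 led at PWD0 (31.99 CPM per kb), PWD14 (16.7) and PWD28 (34.5), followed at PWD28 by Lhx2 (32.6) and Lrig1 (24.99), at PWD21 Lrig1 (9.02) and Sox9 (8.87) had overlapping ranges, and Lgr5 was second to last among the genes at PWD14 (0.0435). In unwounded spiny mouse dermis Sox9 (59.2), Cd34 (54.1) and Lhx2 (51.0) led, and the ranges of Cd34 (53.2 to 55.1) and Lhx2 (50.1 to 51.8) did not overlap while those of Sox9 (56.8 to 61.6) lay above both. At PWD21 that order had turned to Lrig1 (65.2), Cd34 (34.6) and Lgr5 (11.3), with ranges that did not overlap. Laboratory mouse margin dermis had Cd34 (124), Lgr5 (33.9) and Lrig1 (20.1) on top, also without overlap, and Lgr6 last (0.0957). Center epidermis of the laboratory mouse had Sox9 (7.44) and Lrig1 (7.40) on top, whose ranges overlapped.

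The genes that ran most like each of them were sought over 12546 genes that averaged 1 CPM or more in both species, by the smaller of the Pearson correlations of log2(TMM CPM + 0.5) over the 13 laboratory mouse and the 12 spiny mouse libraries. These libraries share layer and day, so many genes correlate. For Cd34 the closest were Jam2, Meox2 and Fgd5 (smaller r of 0.98 each), for Lgr5 Ubtd2 (0.93), Itih5 and Csgalnact2 (0.91 each), and for Lrig1 Megf6 (0.92), Ahrr (0.88) and Aff3 (0.87). Lgr6 came closest to Krba1 (0.85), Lrp4 (0.84) and Ptpn13 (0.83), and Sox9 to Camsap3 (0.84), Scnn1g and Psph (0.83 each). The remaining genes had looser partners: Foxc1 with Tpd52l1 (0.78), Fbp1 (0.76) and S100a3 (0.69), Tbx1 with Lgr4 (0.73), Rnf128 and Cystm1 (0.68 each), Nfatc1 with Dcakd and Men1 (0.73 each) and Xrcc1 (0.69), and Zbtb16 with Pyurf and Fmo2 (0.66 each) and Gclc (0.59). Lhx2 was under 1 CPM on average in the laboratory mouse and was left out.

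Other follicle genes were measured in the same libraries. Of all 14698 genes tested in laboratory mouse dermis 0.85% were called, 108 lower in the center and 17 higher, and in epidermis 1.24% were called. An unadjusted p under 0.05 with edgeR was found for 2329 of 14698 genes in dermis and for 3328 of 14165 in epidermis. In laboratory mouse dermis the inner root sheath genes were nearly a margin set: 8 of 9 were called lower in the center and none higher, with Krt27 at 0 counts in both center libraries and 115 CPM in the margin (FDR 0.000133) and the list summing to 0 and 6.89 CPM in the center and 875 CPM in each margin library. Of the upper follicle and sebaceous gland genes 3 of 7 tested were lower in the center, led by Krt79 (5.25 and 224 CPM, -5.40 ± 0.56, FDR 0.00148), and of the other bulge genes 1 of 20, Krt15 (4.29 and 108 CPM, -4.56 ± 0.65, FDR 0.00911). Of the hair germ, placode and matrix genes 0 of 12 tested were called, 5 having an unadjusted p under 0.05 with edgeR. Keratinocyte markers were lower in the center too, 7 of 12, and of the family relatives and the fibroblast, endothelial and leukocyte markers none was called. In laboratory mouse epidermis 1 of the 7 inner root sheath genes tested was called, Krt73 (0.0616 and 4.72 CPM in center and margin, -6.48 ± 0.89, FDR 0.0367), and none of the 19 other bulge, 5 upper follicle and 10 hair germ genes tested, of which 7, 2 and 1 had an unadjusted p under 0.05 with edgeR.

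In spiny mouse epidermis 46.6% of all genes were called between PWD14 and PWD21, 23.4% higher and 23.2% lower at PWD14. Without TMM factors the calls that were higher at PWD14 fell from 50.2 to 18.9% of all calls, and the counts of each list that follow were made with TMM scaling. Of the inner root sheath genes 7 of 9 were lower at PWD14 and 2 higher, and Krt71 was at 7.88 and 240 CPM (-4.37 ± 0.41, FDR 5.17e-05). Of the hair germ, placode and matrix genes 5 of 13 tested were lower at PWD14 and none higher, among them Sostdc1 (14.6 and 90.1 CPM, -2.07 ± 0.19, FDR 5.17e-05) and Lef1 (1.19 and 5.63 CPM, -1.67 ± 0.43, FDR 0.00886). Other bulge genes went both ways, 6 higher and 5 lower at PWD14 of 19 tested, with Wif1 lower (0.896 and 12.3 CPM, -3.17 ± 0.44, FDR 0.000281) and Runx1 higher (63.1 and 29.0 CPM, 1.66 ± 0.21, FDR 0.000175). Upper follicle and sebaceous gland genes also split, 2 higher and 2 lower of 8, Krt17 being at 30830 and 7564 CPM (2.58 ± 0.34, FDR 0.000208). The leukocyte markers split as well, 3 higher and 3 lower of 9. The median log2 change of the hair follicle stem cell genes tested was -0.86, beside -0.04 for all genes.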

How the data were processed

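RNA-seq of 25 wound and skin libraries was read as counts per gene symbol. The authors aligned reads of both species to the laboratory mouse genome (mm10) and deposited raw htseq-count counts of reads per gene, 1 file per library, without normalization or filtering. The submitters' processing notes name STAR 2.4.1d, HTSeq 0.6.0 and edgeR, and the strand option of the counting is not given in the sources used here. Groups were taken from the labels. Labels carry no replicate number, so replicates are numbered in accession order. The 5 wild-type wound center dermis libraries were divided as in the study's clustering, replicates 1 and 2 against the margin and replicates 3 to 5 against K14-Cre-Twist1.

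CPM was computed over all 24500 gene symbols, leaving out 5 summary lines. Tests used edgeR 4.0.16 (filterByExpr, TMM, glmQLFit, glmQLFTest) in R 4.3.3, with FDR under 0.05 over all genes tested, and were checked on simulated counts. A gene that the filter removed is called not tested. The SE is the log2 change divided by the square root of F. Against a group at 0 counts, 3 counts per library set the lower bound of a fold. Counting limits and folds cover counting error only. Replicate pairs differed by more than sampling noise (chi-square per degree of freedom of 28.3 to 375), so no library was counted as a duplicate. In wild-type center dermis, pairs across the 2 sets of libraries (134 to 214) differed more than pairs within a set (80.0 to 98.2). Alternatives were DESeq2 1.42.0, edgeR's likelihood ratio test, the quasi-likelihood estimate of edgeR 3, RLE size factors, no TMM factor, other count filters, 1 fit for all libraries of a species, all 5 center dermis libraries, and each library left out. Levels between genes were compared per kb of the union of GENCODE exons. Gene positions are from RefSeq on GRCm38.p6.

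All 10 genes were named in every comparison. From each other list at most 4 genes per comparison could be named, those of largest change among genes called with a mean of at least 1 CPM. The other lists were the R-spondin and LGR axis, other bulge genes, upper follicle and sebaceous gland genes, hair germ, placode and matrix genes, inner root sheath genes, family relatives, and markers of keratinocytes, fibroblasts, endothelium, leukocytes, skeletal muscle and adipocytes. The genes and lists were chosen with earlier results of these data known.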

Additional observations from a re-analysis of the deposited data

Results flagged for a closer look

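Some values stood out by fixed rules. In wild-type wound center dermis of the laboratory mouse, Lhx2 was at 1.59 CPM (35 counts) in replicate 1 and at 0 counts in the other 4 libraries, so that its gap to the others took up the whole range of the group (Dixon's 95% critical value is 0.71 for 5 samples). With 4 libraries at 0, any count above 0 in the fifth gives that outcome, so it is no test, and the values are given as a description.

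The center-margin change of Cd34 was higher in epidermis than in dermis by 2.86 on the log2 scale (edgeR's quasi-likelihood interaction test, FDR 0.0127), and that of Foxc1 by 13.13 (FDR 0.0103). The median difference over all 15531 genes tested was 0.31. For Foxc1 both dermis libraries of the center were at 0 counts, so the size of 13.13 depends on the fit and is not a bound. The paired-end reads of the epidermis and the single-end reads of the dermis cannot be told apart from the layers, although each center-margin contrast was made within 1 read type.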

How the results depend on the processing

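No paired analysis was possible because the labels give no replicate numbers. Of 1298 values of single genes under alternatives, 1157 kept direction and side of the threshold, 55 lost a call, 37 gained one and 49 turned in direction, none of them called at first. The number of the genes called changed by over 1.5 times as follows. Center against margin in laboratory mouse epidermis (1 called) gave 2 with DESeq2 or the likelihood ratio test and 0 with the edgeR 3 estimate or with 10 counts required in every library, which left Zbtb16 untested, and 0 to 5 with 1 library left out. In dermis (1) it gave 2 with DESeq2, 3 with the likelihood ratio test, 0 with the edgeR 3 estimate, without a filter or with all libraries in 1 fit, and 0 to 1 with 1 left out. Center epidermis against dermis (6) gave 3 with 10 counts in every library and 2 to 7 with 1 left out. Spiny mouse epidermis (3) gave 6 without TMM factors, and spiny mouse dermis PWD21 against PWD0 (7) gave 3 to 8 with 1 left out. The difference between layers in the center-margin contrast (2) gave 4 with the likelihood ratio test, 1 with the edgeR 3 estimate or 10 counts, and 0 to 2 with 1 left out. Smaller changes came with the scaling: the margin layers (4) gave 5 with RLE, Lrig1 being gained, and 5 without TMM, Lrig1 and Tbx1 being gained and Lgr6 lost. Without TMM the center layers gave 6 as before, with Nfatc1 gained and Sox9 lost, the spiny mouse layers (5) gave 6 with Tbx1 gained, and spiny mouse dermis gave 6 with Tbx1 lost. K14-Cre-Twist1 gave 0 of the genes in all 14 alternatives. Where no cause is given by the construction of the alternative, the cause was not tested.

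Changes of direction without leaving out a library were, as log2 values, Sox9 0.00 (no TMM) and 0.07 (1 fit) for epidermal center against margin, Cd34 0.07 for the dermal one with all 5 center libraries, and with these 5 Lgr5 -0.18 and Lrig1 -0.01 for K14-Cre-Twist1, Tbx1 0.19 for the center layers and Lrig1 0.29 and Zbtb16 -4.08 for the difference between layers. Without TMM the margin layers gave Sox9 -0.07 and Nfatc1 -0.36, and spiny mouse epidermis Tbx1 -0.09 and Foxc1 -0.49 (-0.00 without a filter). With 1 library left out, values that crossed 0 ran from -0.38 to 0.37 (Sox9), -0.52 to 0.32 (Nfatc1) and -0.01 to 0.25 (Lrig1) in epidermal center against margin, -8.26 to 2.3 (Lhx2) and -1.28 to 0.39 (Tbx1) in dermis. For K14-Cre-Twist1 they ran from -0.64 to 2.54 (Lgr5), -6.28 to 3.79 (Lgr6), -0.91 to 0.23 (Sox9), -0.27 to 0.04 (Nfatc1), -6.89 to 3.18 (Foxc1) and -8.04 to 2.39 (Zbtb16). Between layers they ran from -0.43 to 0.11 (Nfatc1) and -0.81 to 0.87 (Tbx1) in the center, -8.28 to 1.94 (Lhx2) and -0.11 to 0.8 (Nfatc1) in the margin, and -1.03 to 0.95 (Lgr6), -0.64 to 0.48 (Lhx2), -0.66 to 0.82 (Foxc1) and -1.66 to 0.42 (Zbtb16) in the spiny mouse. The spiny mouse days gave -1.5 to 1.94 (Cd34), -0.02 to 1.57 (Tbx1) and -0.43 to 0.48 (Foxc1) in epidermis and -1.46 to 0.91 (Lgr6) and -0.42 to 0.12 (Nfatc1) in dermis, and the difference between layers -6.32 to 5.29 (Lhx2) and -0.33 to 0.05 (Lrig1).

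All-gene calls moved as well. They were 176 for epidermal center against margin (0 to 1533 under other settings, 70 to 7405 with 1 library left out), 125 for the dermal one (3 to 886, 19 to 241), 8 for K14-Cre-Twist1 (0 to 787, 1 to 3353), 540 for the difference between layers (204 to 1485, 167 to 1343) and 3795 for the dermal days (3853 to 6597, 1602 to 7260). With 1 library left out, they went from 8038 to 4899 at the lowest for the center layers, from 7141 to 4508 for the margin layers, from 6002 to 3470 for spiny mouse epidermis and from 3792 to 1311 for dermis PWD21 against PWD0. Groups of 1 to 3 libraries, low counts of Lgr6, Lhx2, Tbx1 and Zbtb16, the alignment of spiny mouse reads to another species' genome and the unknown cell makeup of each layer limit what these values show.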
